A study of Mus musculus with 27 samples.

Results

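The rectum's response to a single dose of 25 Gy was compared between 2 weeks and 3 days after exposure, as the radiation effect at 2 weeks less the radiation effect at 3 days for every gene measured. The comparison used 12 of the 27 libraries of the series, chosen by their labels alone: 3 irradiated and 3 sham-irradiated mice at 2 weeks, and 3 irradiated and 3 sham-irradiated mice at 3 days. All mice were C57BL/6 females, 8 to 10 weeks old per the study's methods. Irradiated mice had been anesthetized and given X-rays to the lower pelvis with the rest of the body under lead. Their sham-irradiated controls at each time were anesthetized too, per the study's methods. Each library was poly(A) RNA from rectal tissue of 1 mouse, so the model is a single large dose to a short stretch of bowel in which other cells of the piece were irradiated too. The question was which parts of the response seen in the acute phase had ended, persisted or turned round by the subacute phase, and which had not begun at 3 days.

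Ionizing radiation breaks DNA, and the transcription factor p53 then switches on genes for cell cycle arrest, repair and apoptosis in the dividing cells of the crypt. Surviving crypt cells then regrow the epithelium under Wnt and EGF receptor signals. Where the mucosa stays damaged, leukocytes enter through activated vessels, and fibroblasts lay down and remodel collagen.

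Library totals ranged from 19124092 to 23281174 counts. Libraries of the same group differed by more than sampling noise, and each of the 12 counts as its own sample. The irradiated mice at 2 weeks varied more than any other group, with a mean correlation to their own group of 0.941 to 0.956 against 0.965 to 0.984 in the other 3 groups. The epithelial marker Epcam was at 1050, 1630 and 971 CPM (counts scaled to 1000000 per library) in irradiated mice at 2 weeks, against 1580, 1630 and 1670 CPM in their controls. At 3 days it was at 1640, 1840 and 1730 CPM in irradiated mice, against 1720, 1930 and 1980 CPM in their controls. Replicates 1 and 3 of the irradiated mice at 2 weeks were the lowest for it, and they were also the highest for the neutrophil gene S100a8 (1370, 354 and 7140 CPM). In such bulk samples fewer cells of a type and less RNA per cell cannot be told apart. Sham-irradiated replicate 3 at 3 days carried more B cell RNA than the rest (Cd79a at 39 CPM, against at most 6.35 CPM elsewhere), and irradiated replicate 3 at 3 days more fat (Adipoq at 49.4 CPM, against at most 16.2 CPM elsewhere). The part of these differences in the results was not tested.

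The radiation effect differed between the times in 2616 of 15271 genes tested. It was higher at 2 weeks in 1553 (10.2% of all genes) and lower in 1063 (6.96%), at an adjusted p under 0.05 in edgeR's quasi-likelihood test. Scaling to total counts in place of TMM moved the median difference of all genes by -0.13 and gave 1228 higher and 1403 lower calls (46.7% higher, against 59.4% with TMM). A stricter reading, with a log2 difference beyond 1 in size and an adjusted p below 0.01, kept 637 genes (4.17%). The effect at 2 weeks on its own was called in 5389 genes (35.3%) and that at 3 days in 2038 (13.3%). The median difference over all genes was 0.04 on the log2 scale. The counts depended on single libraries: the higher count was 2376 without irradiated replicate 2 at 2 weeks, and 798, 969 and 932 without control replicates 1, 2 and 3 at 2 weeks, 804 and 849 without irradiated replicates 1 and 2 at 3 days, and 907 without control replicate 3 at 3 days. The lower count was 1684 without irradiated replicate 2 at 2 weeks, 526 and 575 without control replicates 1 and 2 at 2 weeks, 549 and 567 without irradiated replicates 1 and 2 at 3 days, and 674 without control replicate 3 at 3 days. At the stricter thresholds the count lay between 174 and 1556, the extremes being those without irradiated replicate 1 at 3 days and without irradiated replicate 2 at 2 weeks. Of the called genes, 1115 (42.6%) were called whichever of the 12 libraries was left out.

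The sham-irradiated mice at the 2 times were not alike. Between the controls at 2 weeks and those at 3 days 1304 genes (8.54%) differed, and 544 of the 2616 called genes were among them. In 364 of the called genes the controls differed and the irradiated mice did not. The mice at the 2 times were different animals and no source used here gives their order of handling, so time after exposure, age and day of collection cannot be told apart in the controls. By gene list the controls differed in 18 of 20 sterol synthesis genes, 17 of 20 smooth muscle genes, 9 of 17 fibrillar and network collagen genes, 10 of 22 basement membrane genes, 8 of 27 interferon-stimulated genes, 10 of 35 matricellular and fibroblast activation genes, 4 of 19 genes that process and crosslink collagen, and 8 of 39 drug and retinol metabolism genes.

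**Figure D1:**
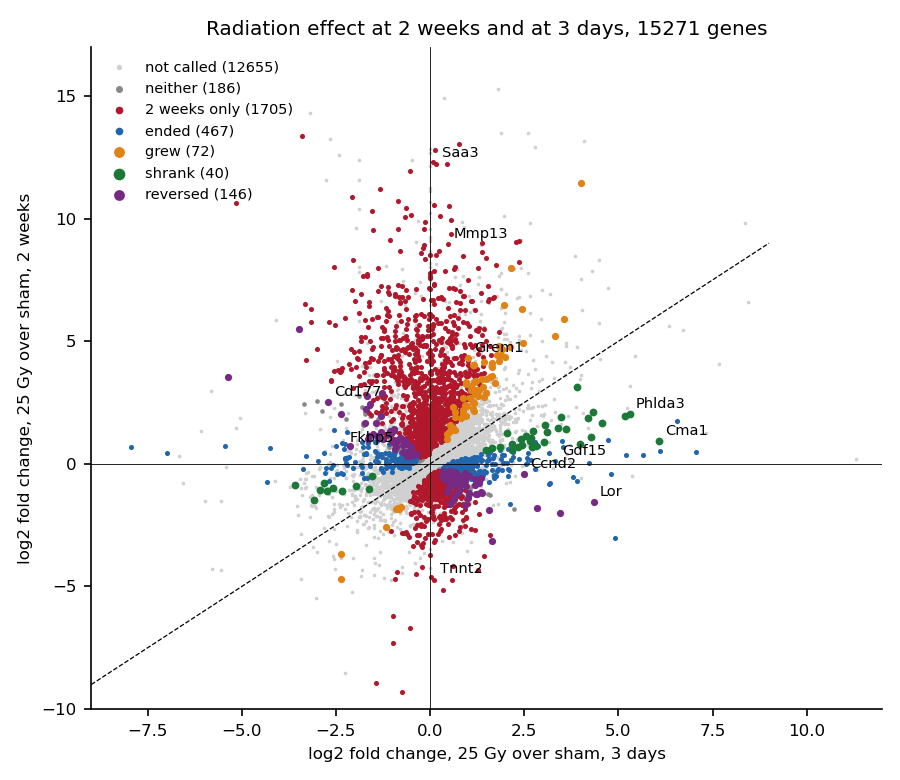
Log2 fold change of 25 Gy over sham for each of 15271 genes, at 2 weeks on the vertical axis and at 3 days on the horizontal axis. Colours mark the called genes by class and the dashed line marks equal effects: most called genes (1705, red) lie near 0 at 3 days and away from 0 at 2 weeks, while Phlda3, Cma1, Gdf15, Ccnd2 and Lor lie far to the right with smaller effects at 2 weeks, those of Ccnd2 and Lor below 0.

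Sorted by which of the 2 effects was itself called, most of the genes belonged to the later time. An effect at 2 weeks only was seen in 1705 genes (65.2% of those called, 1174 higher and 531 lower), and in 467 (17.9%) an effect called at 3 days was not called at 2 weeks. In 146 genes (5.58%) the effect reversed its sign, with 96 up at 3 days and down at 2 weeks and 50 the other way. It grew in 72 genes (2.75%) and shrank without ending in 40 (1.53%). For the last 186 (7.11%) neither effect passed the test on its own. These classes describe the same values as the test and were not tested again.

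The p53 response was strong at 3 days and much weaker at 2 weeks. Of 30 p53 target genes, 14 had a lower effect at 2 weeks and none a higher one, with a median difference of -0.68, and 12 to 17 were lower with any 1 library left out. The median log2 fold change of the list was 0.31 at 2 weeks and 1.05 at 3 days. Phlda3, which holds back the kinase Akt, was at 34.8, 27.5 and 34.5 CPM in irradiated mice at 2 weeks, against 8.18, 8.41 and 7 CPM in their controls. Its levels at 3 days were 159, 248 and 197 CPM in irradiated mice, against 4.04, 4.1 and 7.21 CPM in their controls. The irradiated mice lay above their controls at both times without overlap, and the effect at 2 weeks was lower by a log2 difference of -3.26 ± 0.33 (SE; adjusted p = 0.000595).

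Other targets shrank in the same way or ended. Ccng1, which encodes cyclin G1, stood at 237, 179 and 154 CPM in irradiated mice and 104, 114 and 121 CPM in controls at 2 weeks. At 3 days its levels were 604, 754 and 811 CPM in irradiated mice and 147, 134 and 122 CPM in controls. The remaining excess at 2 weeks was a log2 fold change of 0.75 ± 0.17, against 2.43 ± 0.18 at 3 days (adjusted p of the difference 0.00214). The death receptor gene Eda2r had 19.2, 9.25 and 12.8 CPM in irradiated mice and 5.87, 3.26 and 4 CPM in controls at 2 weeks, and at 3 days 56.2, 67.8 and 67.3 CPM in irradiated mice and 2.45, 2.37 and 3.21 CPM in controls. Bax, a pore former of apoptosis, Aen, a nuclease of apoptosis, Plk2, a stress kinase, and Ephx1, an epoxide hydrolase outside the list, likewise kept smaller effects at 2 weeks, with differences of -1.20 ± 0.21, -1.63 ± 0.24, -1.62 ± 0.26 and -2.06 ± 0.33.

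In other targets no effect was called at 2 weeks. Gdf15, a secreted stress hormone of the TGF-beta family, was at 12.7, 9.25 and 6.52 CPM in irradiated mice, against 8.63, 7.36 and 10.3 CPM in controls, at 2 weeks. The values at 3 days were 109, 109 and 115 CPM in irradiated mice, against 10.5, 13 and 9.62 CPM in controls. The groups overlapped at 2 weeks and were far apart at 3 days, and the difference was -3.21 ± 0.31 (adjusted p = 0.000493). Ddit4l, an inhibitor of mTOR signalling, Zmat3, an RNA-binding growth inhibitor, and Bbc3, which encodes the apoptosis inducer PUMA, followed the same course with differences of -4.32 ± 0.39, -1.94 ± 0.20 and -2.53 ± 0.54. Some well known targets did not pass. Cdkn1a, the cell cycle inhibitor, was at 265, 276 and 409 CPM in irradiated mice and 252, 259 and 218 CPM in controls at 2 weeks, and at 383, 601 and 467 CPM in irradiated mice and 252, 390 and 312 CPM in controls at 3 days (difference -0.22 ± 0.31, adjusted p = 0.662). Mdm2, the ubiquitin ligase that degrades p53, Sesn2 and Trp53 itself also missed the threshold, with differences of -0.71 ± 0.33, -0.54 ± 0.58 and -0.45 ± 0.19 (adjusted p = 0.159, 0.55 and 0.132).

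Promoter sequences were searched because 14 of the 30 genes of this list had a lower effect at 2 weeks. RefSeq (GRCm38.p6, another build than the mm9 of the counts) held windows of 300 bases, from 250 before to 50 after the start, for 10974 of the 15271 genes. The decamer that p53 binds in pairs was found on either strand of the part before the start in 6 of 22 windows of the p53 list (27.3%) and in 6.2% of all windows. By class, 21 of 221 windows (9.5%) of genes raised at 3 days whose effect ended held it. Among genes raised at both times with a smaller effect at 2 weeks, 2 of 24 windows (8.33%) did. So did 64 of 846 (7.57%) of genes with a higher effect at 2 weeks only, and 22 of 389 (5.66%) of those lower then. In other lists it was in 2 of 13 windows of CXC chemokines and receptors (15.4%) and 3 of 20 of acute phase and antimicrobial genes (15%). It was in 0 of 10 windows of leukocyte adhesion genes. A match describes the letters only and is not a binding site. The 6 carriers were Ddit4l, Ccng1, Bax and Ei24, which were lower at 2 weeks, and Cdkn1a and Mdm2, which did not pass, while the windows of Phlda3 and Eda2r held no match. Windows of 100 bases are shown for 3 of the called carriers, Ddit4l, Ccng1 and Bax, each 5′ to 3′ on its gene's strand with the decamer in capitals. The sites start 90, 185 and 201 bases before the start of Ddit4l (chr3:137623542-137623641, plus strand), Ccng1 (chr11:40755417-40755516, minus strand) and Bax (chr7:45467039-45467138, minus strand).
Ddit4l: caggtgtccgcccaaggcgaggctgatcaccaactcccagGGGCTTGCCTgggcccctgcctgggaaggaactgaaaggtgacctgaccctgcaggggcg
Ccng1: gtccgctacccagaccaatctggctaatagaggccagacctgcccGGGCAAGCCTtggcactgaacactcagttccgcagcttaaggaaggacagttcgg
Bax: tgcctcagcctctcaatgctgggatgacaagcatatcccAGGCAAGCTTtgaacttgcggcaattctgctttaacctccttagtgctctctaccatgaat

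Few cell division genes were called between the times. Of 30 mitosis genes 0 were called in edgeR, DESeq2 or limma-voom, with 2, 2 and 3 lower at an unadjusted p under 0.05, and of 28 DNA replication genes 1 was lower, Mcm2, a helicase subunit, at 26.2, 23.7 and 30.4 CPM in irradiated mice and 33.9, 27.4 and 22.5 CPM in controls at 2 weeks, and 61.1, 73.3 and 58.3 CPM in irradiated mice and 33.3, 46.4 and 30.6 CPM in controls at 3 days. The proliferation marker Mki67 was at 203, 182 and 141 CPM in irradiated mice and 308, 224 and 125 CPM in controls at 2 weeks. At 3 days it was at 275, 225 and 221 CPM in irradiated mice and 274, 171 and 165 CPM in controls. Irradiated mice overlapped their controls at both times, while those at 2 weeks all lay below those at 3 days. When the 6 controls were pooled, 16 of the 28 replication genes and 2 of the 30 mitosis genes were lower at 2 weeks. With any 1 library left out, 0 to 6 of the 28 replication genes were lower. Of these 28, 9 were called higher in irradiated mice at 3 days and 4 at 2 weeks. The summed level of the list at 3 days was 1060, 1090 and 987 CPM in irradiated mice and 710, 791 and 696 CPM in controls. At 2 weeks it was 653, 537 and 625 CPM in irradiated mice and 684, 548 and 424 CPM in controls. The call of Mcm2 (adjusted p = 0.0495) was lost under 15 of 24 alternatives.

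Single growth genes stood out against this. Ccnd2, which encodes cyclin D2 of the G1 phase, was at 345, 351 and 319 CPM in irradiated mice at 2 weeks, against 472, 502 and 391 CPM in their controls. At the earlier time, 3 days, it was at 1600, 2060 and 1720 CPM in irradiated mice, against 343, 328 and 286 CPM in their controls. It fell at 2 weeks and rose at 3 days without overlap at either time, with a difference of -2.92 ± 0.20 (adjusted p = 6.64e-05, the smallest of all genes and shared with Cma1 and Lor). Ccnd1, for cyclin D1, was raised at both times with a smaller effect at 2 weeks, with log2 fold changes of 0.69 ± 0.15 at 2 weeks and 2.33 ± 0.16 at 3 days. Myc, a driver of growth and a Wnt target, had 28.5, 19.5 and 21.3 CPM in irradiated mice and 32.6, 30.3 and 33.4 CPM in controls at 2 weeks, and at 3 days 86.3, 86.1 and 102 CPM in irradiated mice and 25.6, 17 and 22.5 CPM in controls. Its effect at 3 days was a log2 fold change of 2.07 ± 0.18, and the one at 2 weeks, at -0.48 ± 0.17, was not called (adjusted p of the difference 0.000493).

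**Figure D2:**
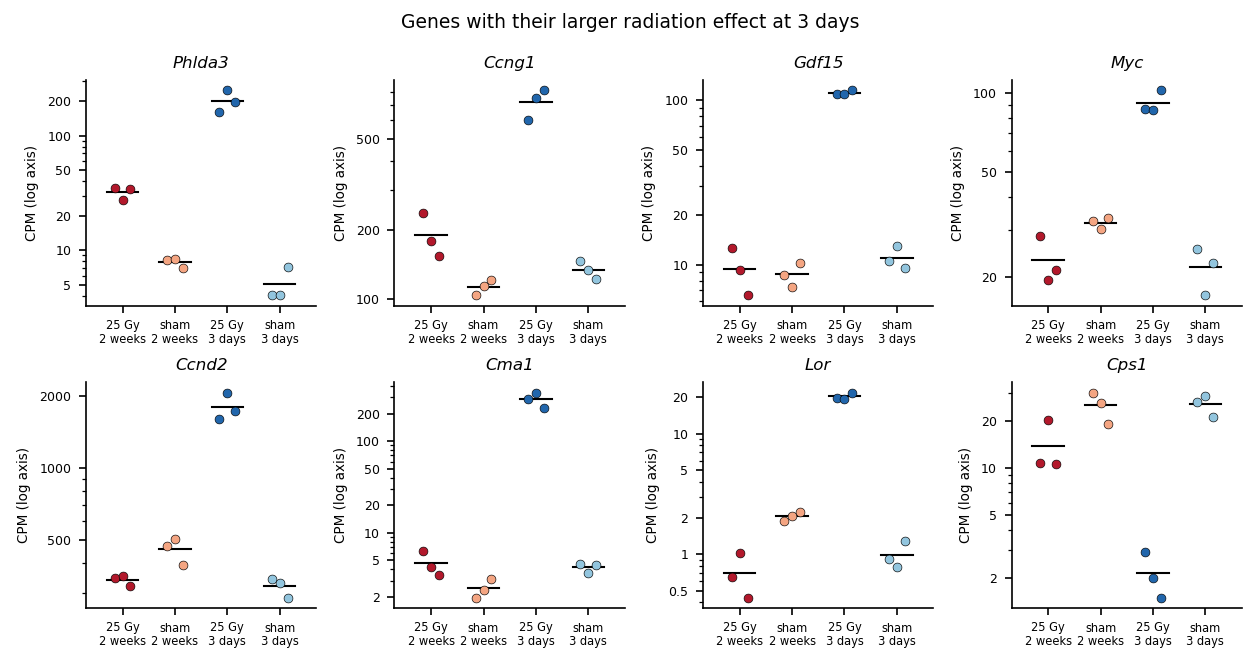
CPM on a log axis in each mouse for 8 genes whose radiation effect was larger at 3 days, with groups from left to right 25 Gy and sham at 2 weeks, then 25 Gy and sham at 3 days; bars mark group means. Phlda3, Ccng1, Gdf15, Myc, Ccnd2, Cma1 and Lor are highest, and Cps1 lowest, in the irradiated mice at 3 days, without overlap with any other group.

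Wnt and stem cell genes of the crypt had the opposite balance to most of the data. Of 22 such genes tested, 10 had a lower effect at 2 weeks and 4 a higher one, with a median difference of -1.01, and 7 to 10 were lower with any 1 library left out. The higher count was 2 without control replicate 1 or 3 at 2 weeks, irradiated replicate 1 or 2 at 3 days, or control replicate 3 at 3 days. Axin2, a feedback inhibitor and general reporter of Wnt signalling, was at 9.72, 13.2 and 11.7 CPM in irradiated mice and 34.1, 24.2 and 29.8 CPM in controls at 2 weeks. Levels at 3 days were 38.7, 28.4 and 28.2 CPM in irradiated mice and 26.3, 17.8 and 14.7 CPM in controls. The irradiated mice lay below their controls at 2 weeks and above them at 3 days, with no overlap at either time, and the difference was -2.05 ± 0.32 (adjusted p = 0.00331). Rnf43, which removes Wnt receptors from the cell surface, reversed its effect in the same direction (-1.68 ± 0.25), and Ascl2, a stem cell transcription factor, fell at 2 weeks only (-2.60 ± 0.47).

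The stem cell gene Lgr5 was at 7.69, 8.02 and 6.91 CPM in irradiated mice and 19.8, 9.87 and 13.3 CPM in controls at 2 weeks, and at 8.61, 4.37 and 4.43 CPM in irradiated mice and 11.8, 13 and 5.43 CPM in controls at 3 days. Its difference of -0.13 ± 0.52 did not pass (adjusted p = 0.892); the gene was chosen after its values had been seen. Smoc2, a matrix protein of the stem cell zone, went against the list: it was at 83.7, 71.5 and 61.7 CPM in irradiated mice and 39, 35.4 and 29.4 CPM in controls at 2 weeks, and at 17.5, 11.5 and 11.1 CPM in irradiated mice and 33.3, 38.9 and 28 CPM in controls at 3 days. It was higher than its controls at 2 weeks and lower at 3 days, without overlap, with a difference of 2.38 ± 0.29 (adjusted p = 0.00115).

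Ligands and outputs of the EGF receptor were called in both directions, with 3 of 26 genes higher and 3 lower at 2 weeks (median difference -0.19), near the shares of all genes. Areg, an EGF receptor ligand of the injured epithelium, had log2 fold changes of 0.92 ± 0.23 at 2 weeks and 2.64 ± 0.24 at 3 days. Its call was lost with all 27 libraries in 1 fit. Etv4, a transcription factor switched on by ERK, was raised at 3 days only, at 67.7, 77.5 and 70.6 CPM in irradiated mice and 7.71, 15.9 and 12.4 CPM in controls, against 16, 19 and 15 CPM in irradiated mice and 13.9, 15.8 and 13.3 CPM in controls at 2 weeks. Ereg, another ligand, grew instead: it was at 596, 96.9 and 111 CPM in irradiated mice and 3.06, 5.06 and 1.9 CPM in controls at 2 weeks, and at 9.06, 11.7 and 8.66 CPM in irradiated mice and 1.07, 1.53 and 2.76 CPM in controls at 3 days. Its difference of 3.88 ± 0.99 (adjusted p = 0.0232) was not called without control replicate 1 or 3 at 2 weeks, irradiated replicate 1 at 3 days or control replicate 3 at 3 days.

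Genes linked to regenerating epithelium were higher at 2 weeks in 8 of 27 and lower in 2, with a median difference of 1.26. The higher count was 3 without control replicate 1 at 2 weeks or irradiated replicate 1 at 3 days, 4 without control replicate 3 at 3 days, and 5 without control replicate 3 at 2 weeks or irradiated replicate 2 at 3 days. Mmp7, a metalloproteinase that epithelium releases, lies outside this list and was at 34.6, 31.1 and 24.9 CPM in irradiated mice and 0, 0 and 0.2 CPM in controls at 2 weeks, and at most 0.348 CPM in irradiated mice and 0.46 CPM in controls at 3 days. It was thus absent or nearly so in every mouse but the irradiated ones at 2 weeks (difference 8.44 ± 1.02, adjusted p = 0.00116). Cd55, which shields cells from complement and lies outside the list too, went the other way, with a difference of -1.01 ± 0.27 whose call was lost with all 27 libraries in 1 fit and without control replicate 1 or 2 at 2 weeks or irradiated replicate 2 or 3 at 3 days. Lama3, a chain of the laminin under the epithelium, had log2 fold changes of -0.42 ± 0.13 at 2 weeks and 0.58 ± 0.13 at 3 days. For Lama3 the controls also differed, by 0.65, and its call was lost when the controls were pooled.

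Absorptive and secretory genes of the colon were mixed. Of 32 transport and brush border genes, 5 were higher and 4 lower at 2 weeks (median difference -0.02), close to the shares of all genes, and these counts moved with single libraries: between 2 (without irradiated replicate 1 at 3 days) and 5 for the higher and between 2 and 12 (without irradiated replicate 2 at 2 weeks) for the lower. Car1, a carbonic anhydrase of surface colonocytes, was at 203, 478 and 133 CPM in irradiated mice and 1250, 1550 and 957 CPM in controls at 2 weeks. By comparison, at 3 days it was at 3310, 3620 and 4040 CPM in irradiated mice and 1620, 1260 and 2830 CPM in controls. It fell at 2 weeks without overlap, and the difference was -3.15 ± 0.61 (adjusted p = 0.00792).

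Slc9a3, a sodium and proton exchanger, was at 15.9, 179 and 17.2 CPM in irradiated mice and only 0.653, 1.1 and 2.5 CPM in controls at 2 weeks, but at 51.8, 36.1 and 48.7 CPM in irradiated mice and 51.3, 63.4 and 26.9 CPM in controls at 3 days. The controls themselves differed by -5.05 (adjusted p = 0.0147), and the difference of 5.69 ± 1.24 was not called with the controls pooled. Nor was it called with limma-trend on log2 FPKM with a pseudocount of 1. Aqp4, a water channel, showed a similar pattern with a difference of 2.45 ± 0.54, also lost with pooled controls. Scnn1b, a subunit of the sodium channel ENaC, was lower at 3 days only, at 7.56, 9.23 and 11.9 CPM in irradiated mice and 37.9, 24.9 and 51.1 CPM in controls, against 13.6, 35.3 and 17.7 CPM in irradiated mice and 22.5, 21.1 and 19.2 CPM in controls at 2 weeks. Its call (adjusted p = 0.0173) was lost without irradiated replicate 1 at 3 days.

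Several intestinal genes that were low at 3 days stood closer to their controls at 2 weeks. Cps1, which brings ammonia into the urea cycle, was at 10.8, 20.1 and 10.6 CPM in irradiated mice and 30.2, 26 and 19.1 CPM in controls at 2 weeks. At 3 days it was at 2.9, 1.99 and 1.49 CPM in irradiated mice and 26.4, 28.7 and 21.2 CPM in controls. The 2 groups overlapped at 2 weeks, where a smaller reduction was still called, and were far apart at 3 days (difference 2.72 ± 0.43, adjusted p = 0.00331). Cyp2c67, a cytochrome P450, was at 48.7, 77.4 and 38.2 CPM in irradiated mice and 134, 118 and 87.6 CPM in controls at 2 weeks, and at 21.4, 18 and 12.4 CPM in irradiated mice and 139, 118 and 134 CPM in controls at 3 days, so it stayed below controls at both times with a smaller effect at 2 weeks (1.86 ± 0.37). Slc6a4, the serotonin transporter, followed with a difference of 2.03 ± 0.35, and its call was lost with pooled controls.

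Drug and retinol metabolism genes as a list gave 4 higher and 2 lower of 39 (9 lower without irradiated replicate 2 at 2 weeks, and 2 higher without control replicate 1 or 3 at 2 weeks, irradiated replicate 1 or 2 or control replicate 2 at 3 days). The counts of 4 and 2 were near the shares of all genes, 10.2% higher and 6.96% lower. Ugt1a1, which conjugates bilirubin, was reduced at 3 days only (-1.03 ± 0.14, against 0.14 ± 0.14 at 2 weeks). Its call was lost with the controls pooled. Sult1a1, a sulfotransferase, had a difference of 1.59 ± 0.47 whose call (adjusted p = 0.0387) was lost under 15 of 24 alternatives. Klk1, a kallikrein of goblet cells, and Fkbp5, a target of the glucocorticoid receptor, were also low at 3 days only, Fkbp5 at 58.4, 52.4 and 67.4 CPM in irradiated mice and 333, 252 and 290 CPM in controls, against 145, 318 and 160 CPM in irradiated mice and 135, 171 and 98.4 CPM in controls at 2 weeks. Their differences were 2.17 ± 0.46 and 2.92 ± 0.41.

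A small set of genes lay above controls at 2 weeks and below them at 3 days. Cd177, best known from neutrophils, was at 437, 463 and 1090 CPM in irradiated mice and 111, 91.5 and 145 CPM in controls at 2 weeks. Its levels at 3 days were 13, 13.1 and 9.65 CPM in irradiated mice and 72.3, 70.5 and 92.5 CPM in controls. At 2 weeks its high replicate was also the one highest for the neutrophil genes S100a8 and S100a9. S100a8 was at 1370, 354 and 7140 CPM in these irradiated mice and at most 0.952 CPM in their controls. The part of neutrophils in the level of Cd177 was not tested. The difference was 5.23 ± 0.48 (adjusted p = 0.00041). Ceacam10, a cell adhesion protein, Spink1, a trypsin inhibitor, and the water channel Aqp1 reversed likewise, with differences of 2.88 ± 0.31, 2.63 ± 0.38 and 1.82 ± 0.25.

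Goblet cell genes were higher at 2 weeks in 4 of 18 and lower in 1. Retnlb, an antimicrobial goblet cell product, was at 59.1, 178 and 36.2 CPM in irradiated mice at 2 weeks and at 0.0502, 0 and 0 CPM in their controls, a total of 1 count over the 3 control libraries. The values at 3 days were 0.651, 0.0496 and 1.29 CPM in irradiated mice and 1.48, 0.987 and 0.444 CPM in controls, so it was abundant in irradiated mice at 2 weeks and near 0 elsewhere (adjusted p = 0.00145). Zg16, a lectin of the mucus, had its difference of 1.63 ± 0.43 called here (adjusted p = 0.027) but lost under 10 of 24 alternatives, pooled controls among them. Reg4, a secretory lectin, was high at 3 days only, at 1280, 1240 and 1040 CPM in irradiated mice and 316, 376 and 287 CPM in controls, against 212, 409 and 192 CPM in irradiated mice and 202, 186 and 169 CPM in controls at 2 weeks. Its call was lost without 7 of the 12 libraries in turn.

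One of the largest changes at 3 days was in Cma1, which encodes mast cell chymase. It was at 6.4, 4.23 and 3.5 CPM in irradiated mice and 1.96, 2.35 and 3.1 CPM in controls at 2 weeks. At the earlier time, 3 days, it was at 289, 340 and 233 CPM in irradiated mice and 4.6, 3.6 and 4.49 CPM in controls, and the difference was -5.15 ± 0.35 (adjusted p = 6.64e-05). The mast cell markers Cpa3 and Mcpt4 did not go with it, at no more than 1.59 and 1.44 CPM in any of the 12 libraries. Ang4, an antimicrobial ribonuclease with close paralogs among which reads may be split, was also at 206, 127 and 178 CPM in irradiated mice and 7.46, 9.77 and 2.12 CPM in controls at 3 days, against 4.51, 0.443 and 1.8 CPM in irradiated mice and 1.46, 1.45 and 0.5 CPM in controls at 2 weeks (adjusted p = 0.0267). That call was lost with all 27 libraries in 1 fit and without control replicate 1 or 2 at 2 weeks or irradiated replicate 1 at 3 days.

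A few genes of stratified epithelium and skin were raised at 3 days. Lor, a cornified envelope protein, was at 0.645, 1.03 and 0.438 CPM in irradiated mice and 1.91, 2.1 and 2.25 CPM in controls at 2 weeks. Levels at 3 days were 19.9, 19.4 and 22 CPM in irradiated mice and 0.919, 0.79 and 1.28 CPM in controls, and the difference was -5.90 ± 0.41 (adjusted p = 6.64e-05). Krt15, a keratin of stratified epithelium, was at 27.1, 39 and 40.4 CPM in irradiated mice and 0.971, 0.889 and 1.04 CPM in controls at 3 days, and Krt4, another, at 10.9, 14.2 and 9.6 CPM in irradiated mice and 0.153, 0.148 and 0.839 CPM in controls. The call of Krt4 was lost without control replicate 3 at 2 weeks. Csta1, a protease inhibitor with near-identical paralogs, was at 24.2, 32.8 and 31.6 CPM in irradiated mice and 3.58, 3.65 and 5.03 CPM in controls at 3 days. Other squamous markers were low in the same mice: Krt5 was at 0.1, 0.248 and 0.199 CPM and Trp63 at 0.15, 0.0993 and 0.149 CPM. Krt14 was at 1.5, 1.84 and 2.14 CPM in irradiated mice and 0.766, 1.38 and 2.62 CPM in controls at 3 days. Krt13, also low, lay above its controls without overlap at 3 days, at 1.75, 3.62 and 2.44 CPM against 0.358, 0.444 and 0 CPM. Of the 16 squamous genes tested, 3 were lower and 2 higher at 2 weeks, beside 6.96% lower and 10.2% higher over all genes. The lower count was 6 without irradiated replicate 2 at 2 weeks, and the higher count 0 without control replicate 2 at either time and 1 without each of 6 other libraries in turn.

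Hemoglobin transcripts were nearly missing from the irradiated mice at 3 days. Hbb-bs was at 48.6, 22.8 and 46.2 CPM in irradiated mice and 10.8, 53.5 and 22.7 CPM in controls at 2 weeks. By comparison, at 3 days it was at 0.0501, 0.0496 and 0.0498 CPM in irradiated mice, a total of 3 counts, and 7.87, 3.75 and 9.72 CPM in controls. Hba-a2 gave 0 counts in all 3 irradiated mice at 3 days and 1.28, 1.14 and 2.17 CPM in their controls, against 12.4, 5.12 and 15.2 CPM in irradiated mice and 3.61, 11.6 and 5.4 CPM in controls at 2 weeks. The differences passed the test (adjusted p = 0.00251 and 0.00488), but globin copies are near identical and reads may have been shared among them, and the part of blood held in the tissue was not tested. The call of Hbb-bs was lost with limma-voom.

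Sterol synthesis genes had higher effects at 2 weeks, and the controls of the 2 times also differed in most of them. Of the 20 tested, 10 had a higher effect at 2 weeks and none a lower one, with a median difference of 1.17, and 18 of the 20 differed between the controls. Their summed level was 2050, 3070 and 2270 CPM in irradiated mice and 1440, 1560 and 1380 CPM in controls at 2 weeks. At 3 days it was 2800, 4280 and 3910 CPM in irradiated mice and 3440, 5530 and 3660 CPM in controls. With the controls of both times pooled, 0 of the 20 genes were called at an adjusted p under 0.05 in edgeR and 1 passed at an unadjusted p under 0.05, while DESeq2 and limma-voom with separate controls called 12 and 10. Fdps, which makes farnesyl diphosphate, was at 127, 156 and 135 CPM in irradiated mice and 53.4, 65.7 and 47.2 CPM in controls at 2 weeks, and at 96.1, 146 and 133 CPM in irradiated mice and 131, 211 and 223 CPM in controls at 3 days. The low group was the controls at 2 weeks, and the difference of 1.92 ± 0.31 (adjusted p = 0.00352) stood beside a control difference of -1.77.

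Nsdhl, an enzyme of the same pathway, was at 34.1, 44.2 and 35.6 CPM in irradiated mice and 20.2, 22.8 and 17.6 CPM in controls at 2 weeks, and at 33.6, 44.3 and 44.5 CPM in irradiated mice and 51.6, 71.5 and 66.5 CPM in controls at 3 days. Its effect reversed, and the controls differed by -1.65. Nsdhl and Idi1, another pathway enzyme, had differences of 1.54 ± 0.24 and 1.72 ± 0.31, which turned to -0.10 and -0.38 when the controls were pooled. The calls of Fdps, Nsdhl and Idi1 were kept whichever library was left out.

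Inflammatory genes were raised at 2 weeks and mostly not at 3 days. Of 24 acute phase and antimicrobial genes, 12 were higher at 2 weeks and 1 lower (8 to 15 higher with any 1 library left out), with a median difference of 8.23. Saa3, an acute phase protein made in tissue, was at 2270, 619 and 5200 CPM in irradiated mice and 0.201, 0.952 and 0.5 CPM in controls at 2 weeks. Its levels at 3 days were 0.3, 0.596 and 0.945 CPM in irradiated mice and 0.868, 0.296 and 0.494 CPM in controls, which overlapped. The difference was 12.08 ± 1.55 (adjusted p = 0.00145). Lcn2, which starves bacteria of iron, went with it, at 1050, 285 and 3270 CPM in irradiated mice and 1.51, 0.801 and 0.85 CPM in controls at 2 weeks, against at most 3.53 CPM in irradiated mice and 2.15 CPM in controls at 3 days. Irradiated replicate 2 was the lowest and replicate 3 the highest of its group in both genes. Nos2, the inducible nitric oxide synthase, was likewise at 83.8, 23.5 and 2830 CPM in irradiated mice and 1.15, 0.901 and 1.8 CPM in controls at 2 weeks, and at 2.25, 1.34 and 3.83 CPM in irradiated mice and 5.26, 3.06 and 4.98 CPM in controls at 3 days. The call of Nos2 was lost with limma-trend on log2 FPKM with a pseudocount of 1.

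Neutrophil genes were called in 9 of 25 cases, all higher, with a median difference of 9.44. The count was 16 without irradiated replicate 2 at 2 weeks, 5 and 4 without control replicates 1 and 2 at 3 days, 19 with DESeq2 and 24 with the controls pooled. S100a8, the main calcium-binding protein of neutrophils, was at 1370, 354 and 7140 CPM in irradiated mice and 0.301, 0.952 and 0.55 CPM in controls at 2 weeks. The values at 3 days were 0.551, 0.298 and 0.448 CPM in irradiated mice and 0.613, 0.247 and 0.0987 CPM in controls. Every irradiated mouse at 2 weeks lay far above all others (difference 11.81 ± 2.52, adjusted p = 0.0118), although the call was lost without control replicate 1 at 3 days. S100a9, its partner subunit, was at 1590, 348 and 8830 CPM in irradiated mice at 2 weeks and at or below 1 CPM in every other mouse, and its call was lost without any 1 of the controls at 3 days. The marker Csf3r was at 61.4, 11.1 and 584 CPM in irradiated mice at 2 weeks and at most 0.647 CPM elsewhere. The marker Ly6g moved far less, at 128, 133 and 202 CPM in irradiated mice and 108, 117 and 108 CPM in controls at 2 weeks. At 3 days Ly6g was at 147, 167 and 181 CPM in irradiated mice and 150, 133 and 188 CPM in controls.

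Macrophage genes gave a steadier count, with 23 of 28 higher at 2 weeks and none lower (19 to 24 with any 1 library left out), and a median difference of 3.74. Adgre1, which encodes the macrophage antigen F4/80, was at 135, 28 and 124 CPM in irradiated mice and 5.32, 6.31 and 3.35 CPM in controls at 2 weeks. At the earlier time, 3 days, it was at 4.76, 4.57 and 5.82 CPM in irradiated mice and 3.42, 3.9 and 3.75 CPM in controls (difference 3.81 ± 0.67, adjusted p = 0.00524). Itgam, an integrin of myeloid cells, had a difference of 6.38 ± 1.05.

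Cytokine and chemokine genes, in lists that also hold receptors and signalling genes, moved the same way. The part of leukocytes in their levels was not tested. In the interleukin, TNF and colony stimulating factor list 14 of 31 genes were higher and none lower. The count was 25 without irradiated replicate 2 at 2 weeks, 9 without control replicate 1 or 3 at 2 weeks or irradiated replicate 1 or 2 at 3 days, and 8 without control replicate 3 at 3 days. Il1b, which encodes interleukin 1 beta, was at 373, 42.1 and 5760 CPM in irradiated mice and 0.351, 0.551 and 0.3 CPM in controls at 2 weeks, and at no more than 0.751 CPM in irradiated mice and 0.987 CPM in controls at 3 days. Its difference of 12.23 ± 2.87 (adjusted p = 0.0173) was not called without control replicate 3 at 3 days. Il11, a stromal cytokine, and Il1rl1, the receptor of interleukin 33, were more even among the irradiated mice at 2 weeks, Il11 at 72, 20.4 and 46.4 CPM against 1.2, 0.801 and 1.55 CPM in controls, and their differences were 5.19 ± 0.66 and 7.65 ± 1.03. Ptgs2, the inducible cyclooxygenase, had a difference of 7.23 ± 1.43.

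Tnf and Cd44 did not pass. Tnf was at 13.1, 3.35 and 89.5 CPM in irradiated mice and 0.351, 0 and 0.5 CPM in controls at 2 weeks. Levels at 3 days were 2.55, 1.99 and 2.79 CPM in irradiated mice and 0.153, 0.543 and 1.09 CPM in controls (difference 4.91 ± 1.69, adjusted p = 0.0668). Cd44, an adhesion receptor, had a difference of 2.59 ± 0.83 (adjusted p = 0.0536). In both genes the irradiated mice lay above their controls at each time without overlap, and the spread among irradiated mice at 2 weeks was wide.

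CXC chemokines and receptors were higher in 7 of 16 and lower in none. That count was 12 without irradiated replicate 2 at 2 weeks, 3 without control replicate 2 at 2 weeks, and 2 without control replicate 1 or 3 at 2 weeks, irradiated replicate 1 or 2 at 3 days, or control replicate 3 at 3 days. Cxcl1, a neutrophil attractant, was at 215, 32.6 and 129 CPM in irradiated mice and 0.452, 0.601 and 0.05 CPM in controls at 2 weeks, and at 1.8, 1.74 and 2.09 CPM in irradiated mice and 0.971, 0.444 and 0.592 CPM in controls at 3 days (difference 6.91 ± 1.10, adjusted p = 0.00348). Its neighbour Cxcl2 was at 291, 46.8 and 2730 CPM in irradiated mice and no more than 0.201 CPM in controls at 2 weeks, and at or below 0.358 CPM in all mice at 3 days, yet the test gave an adjusted p of 0.0555 with a difference of 12.68 ± 4.12. Cxcl5 was already raised at 3 days and grew, with log2 fold changes of 5.91 ± 0.51 at 2 weeks and 3.55 ± 0.51 at 3 days (adjusted p of the difference 0.0353, lost under 11 of 24 alternatives). Cxcl2 and Cxcl5 were chosen after their values had been seen. Of the CC chemokines and receptors, 7 of 23 were higher (11 without irradiated replicate 2 at 2 weeks), among them the monocyte attractant Ccl2, at 195, 41.6 and 104 CPM in irradiated mice and 0.351, 0.2 and 0.05 CPM in controls at 2 weeks and at 1.9, 0.894 and 2.44 CPM in irradiated mice and 0.409, 0.197 and 0.395 CPM in controls at 3 days.

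The promoters of Cxcl1 and Cxcl2 are shown because these neighbours share the site that inflammatory signals are known to use. The NF-kB site was found in 4 of 13 windows of the CXC list (30.8%) and in 4.63% of all windows. Capitals mark the overlapping matches on the 2 strands, which start 71 bases before the start in Cxcl1 (chr5:90891135-90891234, plus strand) and 97 bases before it in Cxcl2 (chr5:90903769-90903868, plus strand).
Cxcl1: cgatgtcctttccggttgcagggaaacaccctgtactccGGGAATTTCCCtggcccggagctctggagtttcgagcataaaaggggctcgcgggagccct
Cxcl2: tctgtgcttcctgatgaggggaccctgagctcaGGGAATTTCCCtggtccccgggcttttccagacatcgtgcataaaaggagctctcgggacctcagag

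The AP-1 site TGANTCA, which reads alike on both strands, was found in 88 of 846 windows of genes with a higher effect at 2 weeks only (10.4%), in 11 of 389 of those lower at 2 weeks only (2.83%), and in 4.74% of all windows. The TATA box TATAAA, on either strand, was found in 10.3% of the windows of the higher genes, 6.68% of those of the lower genes and 7.09% of all windows. No test was made of these shares, and a lack of a match says only that the letters are not in the window. Mmp7 (chr9:7691980-7692079, plus strand) and the vessel gene Selp (chr1:164115084-164115183, plus strand) are shown as carriers from this class, with the AP-1 site in capitals 63 and 139 bases before the start.
Mmp7: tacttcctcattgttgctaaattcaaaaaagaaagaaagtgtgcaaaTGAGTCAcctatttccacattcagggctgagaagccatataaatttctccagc
Selp: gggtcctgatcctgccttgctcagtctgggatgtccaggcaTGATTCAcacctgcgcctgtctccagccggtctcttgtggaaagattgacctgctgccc

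Lymphoid genes gave few calls, beside a share of 10.2% higher over all genes. T cell and NK cell genes were higher in 1 of 20 (4 without irradiated replicate 2 at 2 weeks or irradiated replicate 3 at 3 days, 2 without control replicate 1 and 0 without control replicate 3 at 3 days), B cell and plasma cell genes in 3 of 17 (1 without control replicate 1 or 3 at 2 weeks, irradiated replicate 1 or 2 at 3 days or control replicate 2 or 3 at 3 days), and MHC class II genes in 0 of 9 with edgeR, although the medians of these lists were 2.48, 2.15 and 2.73. At an unadjusted p under 0.05 edgeR had 6 of the 9 MHC class II genes higher, and after adjustment DESeq2 called 1 and limma-voom 0, while edgeR called 3 without irradiated replicate 2 at 2 weeks and 2 without control replicate 1 at 3 days. Cd74, the chaperone of MHC class II, was at 86, 37 and 350 CPM in irradiated mice and 47.6, 60.2 and 88.1 CPM in controls at 2 weeks, and at 35.4, 41.1 and 85.3 CPM in irradiated mice and 52.2, 112 and 530 CPM in controls at 3 days. Control replicate 3 at 3 days was the highest of all 12, the same mouse that carried more B cell RNA, and the difference of 3.37 ± 1.25 did not pass (adjusted p = 0.0841).

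Interferon-stimulated genes were higher at 2 weeks in 21 of 27 and lower in none, with a median difference of 2.47. This count was 8, 9 and 10 without control replicates 1, 2 and 3 at 2 weeks, 9 and 11 without irradiated replicates 1 and 2 at 3 days, 11 and 13 without control replicates 1 and 3 at 3 days, and 8 with the controls pooled. The summed level was 1560, 1020 and 5710 CPM in irradiated mice and 411, 434 and 489 CPM in controls at 2 weeks. By comparison, at 3 days it was 1200, 1340 and 1170 CPM in irradiated mice and 1310, 690 and 832 CPM in controls, so the controls at 2 weeks were the lowest group. Ifit3, an antiviral protein, was at 40.1, 36.1 and 48.4 CPM in irradiated mice and 4.32, 3 and 4.05 CPM in controls at 2 weeks, and at 17.5, 27.7 and 13.6 CPM in irradiated mice and 7.82, 6.71 and 8.14 CPM in controls at 3 days, raised at both times and more at 2 weeks (2.08 ± 0.35, adjusted p = 0.00445). Usp18, a brake on interferon signalling, and Ddx58, the RNA sensor RIG-I, had differences of 3.53 ± 0.70 and 2.11 ± 0.40.

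Complement and coagulation genes were higher in 24 of 33 and lower in 1, with 18 to 26 higher when any 1 library was left out. C1ra, a protease of the classical pathway, was at 107, 45.8 and 74 CPM in irradiated mice and 13.7, 13 and 11.9 CPM in controls at 2 weeks, and at 16.5, 17.3 and 18 CPM in irradiated mice and 14.1, 16.2 and 16.8 CPM in controls at 3 days. Its difference was 2.42 ± 0.34 (adjusted p = 0.00204), and C2, another component of that pathway, had one of 1.44 ± 0.23. In both genes the irradiated mice overlapped their controls at 3 days and lay above them at 2 weeks.

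Matrix genes formed the next large block, and some of it was under way at 3 days. Of 17 fibrillar and network collagen genes, 7 were higher at 2 weeks and none lower (6 to 9 with any 1 library left out, 14 with the controls pooled), with median log2 fold changes of 2.03 at 2 weeks and 0.94 at 3 days. Col1a1, for the main chain of type I collagen, was at 1600, 913 and 1680 CPM in irradiated mice and 112, 178 and 69.1 CPM in controls at 2 weeks. At 3 days it was at 180, 139 and 100 CPM in irradiated mice and 41.7, 46.5 and 51.8 CPM in controls. The irradiated mice lay above their controls at both times, and the effect grew by 1.97 ± 0.48 (adjusted p = 0.0188) although the controls were also higher at 2 weeks, by 1.36. Col3a1 and Col5a2, of fibrillar collagen, Col4a1, of basement membranes, and Col18a1, the source of endostatin, grew too, with differences of 1.66 ± 0.37, 2.08 ± 0.29, 1.80 ± 0.31 and 2.21 ± 0.26.

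Enzymes that process and crosslink collagen were higher in 10 of 19. This count was 6 without irradiated replicate 1 at 2 weeks, irradiated replicate 1 at 3 days or control replicate 2 at 3 days, 5 without control replicate 3 at 2 weeks, 4 without control replicate 1 at 2 weeks, irradiated replicate 2 at 3 days or control replicate 3 at 3 days, and 17 with the controls pooled. Lox, which crosslinks collagen and elastin, was at 410, 199 and 293 CPM in irradiated mice and 2.16, 6.16 and 3.4 CPM in controls at 2 weeks. Its levels at 3 days were 2.05, 1.89 and 3.38 CPM in irradiated mice and 1.99, 1.14 and 1.09 CPM in controls, and the difference was 5.47 ± 0.61 (adjusted p = 0.000872). Its relative Loxl2 had a difference of 2.36 ± 0.29.

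Matricellular and fibroblast activation genes were higher in 20 of 35 and lower in 2, and metalloproteinases and their inhibitors higher in 17 of 24 and lower in none (10 without control replicate 3 at 3 days). Mmp13, a collagenase, was at 626, 132 and 229 CPM in irradiated mice and 0.452, 0.851 and 0.65 CPM in controls at 2 weeks. The values at 3 days were 1.15, 0.943 and 1.09 CPM in irradiated mice and 0.715, 1.14 and 0.444 CPM in controls (difference 8.50 ± 0.97, adjusted p = 0.000931). Timp1, an inhibitor of these enzymes, came up in the same mice, with a difference of 7.35 ± 0.90, and Mmp2, a gelatinase, was raised at both times, with log2 fold changes of 2.74 ± 0.23 at 2 weeks and 1.44 ± 0.22 at 3 days. The call of Mmp2 was lost with limma-trend on log2 FPKM with a pseudocount of 1 and no filter. Tnc, for tenascin C, grew by 2.88 ± 0.43. Fn1, for fibronectin, was at 1560, 1210 and 2390 CPM in irradiated mice and 444, 459 and 255 CPM in controls at 2 weeks, and at 269, 234 and 188 CPM in irradiated mice and 185, 109 and 111 CPM in controls at 3 days, with a difference of 1.39 ± 0.43 (adjusted p = 0.0492) that was lost under 16 of 24 alternatives.

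Growth factors of the mesenchyme beneath the crypt were higher in 9 of 25 and lower in 3 (5 higher without control replicate 3 at 2 weeks, and 5 lower without irradiated replicate 1 at 2 weeks). Grem1, an antagonist of BMP made by crypt fibroblasts, was at 1460, 703 and 1020 CPM in irradiated mice and 56.7, 65.4 and 37.9 CPM in controls at 2 weeks. At the earlier time, 3 days, it was at 46.2, 49.9 and 45.2 CPM in irradiated mice and 26.1, 16.9 and 27.5 CPM in controls, and the difference was 3.31 ± 0.40 (adjusted p = 0.00115). Fgf7 and Hgf, which act on epithelium, were raised at 2 weeks, with differences of 2.78 ± 0.42 and 2.66 ± 0.44. Bmp2, a ligand that Grem1 binds, fell at 2 weeks only, at 69.5, 67.2 and 54.2 CPM in irradiated mice and 138, 125 and 154 CPM in controls, and its call (difference -1.07 ± 0.22) was lost with the controls pooled.

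Basement membrane genes were higher in 5 of 22 and lower in 4. The higher count was 9 without irradiated replicate 2 at 2 weeks, and the lower count 2 without irradiated replicate 1 or 2 or control replicate 2 at 3 days. Lama1, a laminin chain of embryonic basement membranes, was at 22.4, 11.3 and 13.2 CPM in irradiated mice and 0.201, 0.1 and 0.2 CPM in controls at 2 weeks, and at 1.45, 0.993 and 0.896 CPM in irradiated mice and 0.409, 0.247 and 0.197 CPM in controls at 3 days (difference 4.55 ± 0.61, adjusted p = 0.00169).

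**Figure D3:**
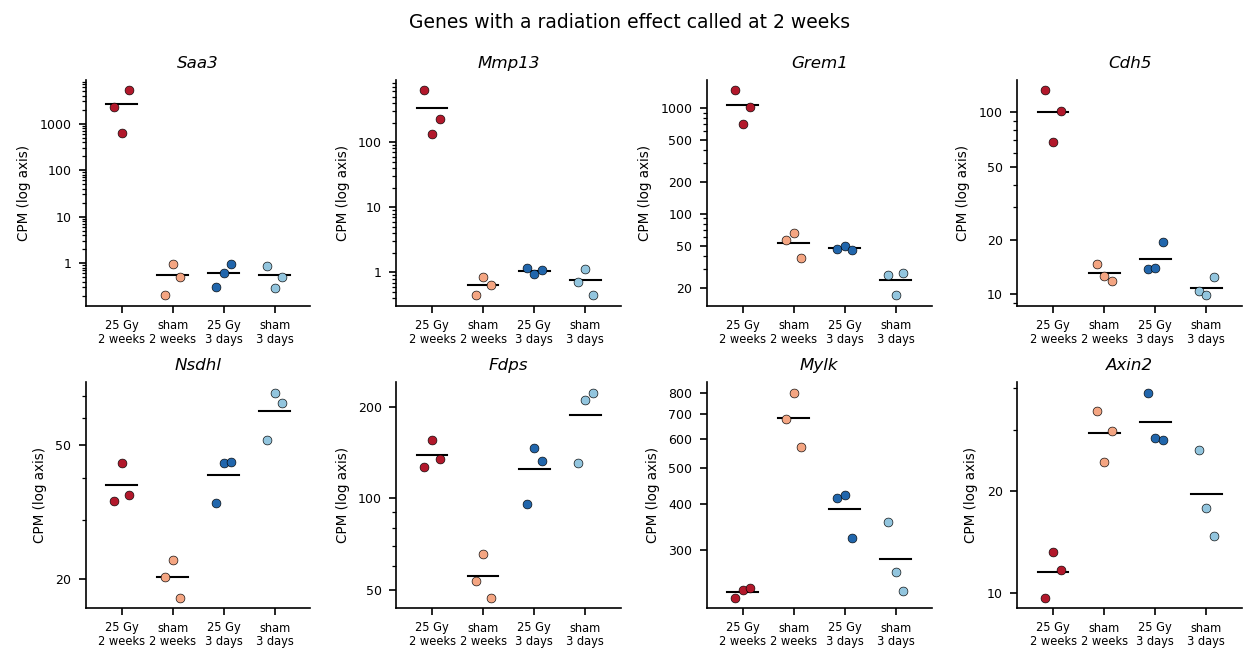
CPM on a log axis in each mouse for 8 genes with a radiation effect called at 2 weeks, with groups from left to right 25 Gy and sham at 2 weeks, then 25 Gy and sham at 3 days; bars mark group means. Saa3, Mmp13, Grem1 and Cdh5 are highest in irradiated mice at 2 weeks, Axin2 is lowest there, and for Nsdhl, Fdps and Mylk the controls at the 2 times stand apart from each other.

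Vessel genes were higher at 2 weeks in 17 of 30 and lower in none (13 to 19 with any 1 library left out), with a median difference of 1.44. Cdh5, for the cadherin of endothelial junctions, was at 132, 68.2 and 102 CPM in irradiated mice and 14.6, 12.6 and 11.9 CPM in controls at 2 weeks. Levels at 3 days were 13.7, 14 and 19.3 CPM in irradiated mice and 10.4, 9.87 and 12.4 CPM in controls, and the difference was 2.43 ± 0.32 (adjusted p = 0.00163). Pecam1, Plvap, of the fenestrae of capillaries, and Angpt2, which loosens vessels, had differences of 1.85 ± 0.36, 1.72 ± 0.24 and 2.87 ± 0.39.

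Genes by which leukocytes adhere to vessels were higher in 11 of 17 and lower in none (9 to 15 with any 1 library left out), with a median difference of 4.39. The list is not of vessel genes alone and holds Itgam, the integrin of myeloid cells given above. Selp, for P-selectin, was at 380, 113 and 183 CPM in irradiated mice and 2.36, 1.9 and 1.55 CPM in controls at 2 weeks, and at 1.75, 2.09 and 2.54 CPM in irradiated mice and 1.17, 1.14 and 1.14 CPM in controls at 3 days. Its difference was 5.97 ± 0.61 (adjusted p = 0.000602). Sele, for E-selectin, was at 57.3, 16.8 and 23.5 CPM in irradiated mice at 2 weeks and at or below 0.153 CPM in every other mouse. Icam1 and Vcam1, which bind leukocyte integrins, had differences of 4.09 ± 0.82 and 3.60 ± 0.69. Irradiated replicate 2 at 2 weeks was the lowest of its group for Selp, Sele, Icam1 and Vcam1 and, as above, for neutrophil and macrophage genes.

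Smooth muscle genes had a lower effect at 2 weeks in 17 of 20 and a higher one in none, with a median difference of -1.48. Between the controls 17 of the 20 differed as well, and 2 were lower with the controls pooled. The summed level was 3720, 4550 and 4520 CPM in irradiated mice and 7590, 9470 and 6710 CPM in controls at 2 weeks. By comparison, at 3 days it was 5610, 5990 and 4460 CPM in irradiated mice and 5030, 3780 and 3550 CPM in controls. Mylk, the kinase that starts contraction, was at 223, 234 and 237 CPM in irradiated mice and 679, 803 and 572 CPM in controls at 2 weeks, and at 416, 424 and 323 CPM in irradiated mice and 358, 262 and 232 CPM in controls at 3 days. By their means the irradiated mice at 2 weeks were the lowest and their controls the highest of the 4 groups (difference -2.01 ± 0.26, adjusted p = 0.00145). Smtn, Acta2 and Des, all of the contractile apparatus, had differences of -2.02 ± 0.24, -1.07 ± 0.26 and -1.05 ± 0.28, and the count of 17 was 11 without irradiated replicate 2 at 3 days. The calls of Smtn, Acta2, Des and Mylk were lost with the controls pooled, that of Acta2 also without irradiated replicate 2 at 3 days, and that of Des without each of 6 libraries in turn.

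Tnnt2, a troponin of the smooth muscle list that is best known from the heart, was at 0.496, 2.12 and 1.6 CPM in irradiated mice and 35, 49.3 and 27.1 CPM in controls at 2 weeks, and at 12.2, 9.78 and 6.57 CPM in irradiated mice and 13.8, 6.76 and 6.17 CPM in controls at 3 days (difference -4.81 ± 0.66, adjusted p = 0.0018). Ckm, muscle creatine kinase, had a difference of -3.26 ± 0.46, not called with the controls pooled or with all 27 libraries in 1 fit. Mylpf, a myosin light chain specific to skeletal muscle, was at 0.198 to 1.78 CPM over the 12 libraries.

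Some nerve genes rose at 2 weeks. Of 20 enteric neuron and glia genes 6 were higher and none lower (3 without control replicate 3 at 2 weeks or irradiated replicate 1 at 3 days, 12 with the controls pooled). Vip, for vasoactive intestinal peptide, was at 610, 302 and 428 CPM in irradiated mice and 30.3, 30.5 and 25.1 CPM in controls at 2 weeks. At 3 days it was at 22, 22 and 18 CPM in irradiated mice and 29.6, 30.4 and 12.8 CPM in controls, and the difference was 4.19 ± 0.45 (adjusted p = 0.000718). Gal, for the neuropeptide galanin, was at 128, 84.8 and 125 CPM in irradiated mice and 1.1, 0.651 and 1.9 CPM in controls at 2 weeks, against at most 1.69 CPM in irradiated mice and 1.53 CPM in controls at 3 days, with a difference of 6.41 ± 0.52 (adjusted p = 0.000228). Tac1, the precursor of substance P, and the neuronal growth protein Stmn2 had differences of 1.39 ± 0.34 and 1.97 ± 0.35. The call of Tac1 was lost without irradiated replicate 1 at 3 days. Among enteroendocrine genes, 4 of 17 were higher and 1 lower, with Sst, for somatostatin, at 17.5, 13.7 and 13.6 CPM in irradiated mice and 4.87, 2.85 and 4.45 CPM in controls at 2 weeks and 8.61, 5.81 and 4.33 CPM in irradiated mice and 4.65, 8.79 and 6.91 CPM in controls at 3 days.

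The remaining lists gave smaller counts, beside shares of 10.2% higher and 6.96% lower over all genes. Fatty acid oxidation genes were higher in 3 of 23, urea cycle, arginine and polyamine genes in 5 of 16, and hypoxia and glycolysis genes in 4 of 25, with none lower in any of them. With 1 library left out these higher counts went down to 1 (without control replicate 1 or 3 at 2 weeks, irradiated replicate 2 or control replicate 3 at 3 days), to 3 (without each of 8 libraries in turn) and to 2 (without irradiated replicate 1 at 3 days). Of 7 genes of interstitial cells of Cajal and 13 adipocyte genes, 0 were called in edgeR, DESeq2 or limma-voom, and at an unadjusted p under 0.05 edgeR had 0 of the Cajal genes and 2 of the adipocyte genes. Of 14 skeletal muscle genes 2 were lower, Ckm and Des, both described above, and mast cell genes gave 1 higher and 2 lower of 10 (2 or 3 higher with any 1 library left out).

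**Figure D4:**
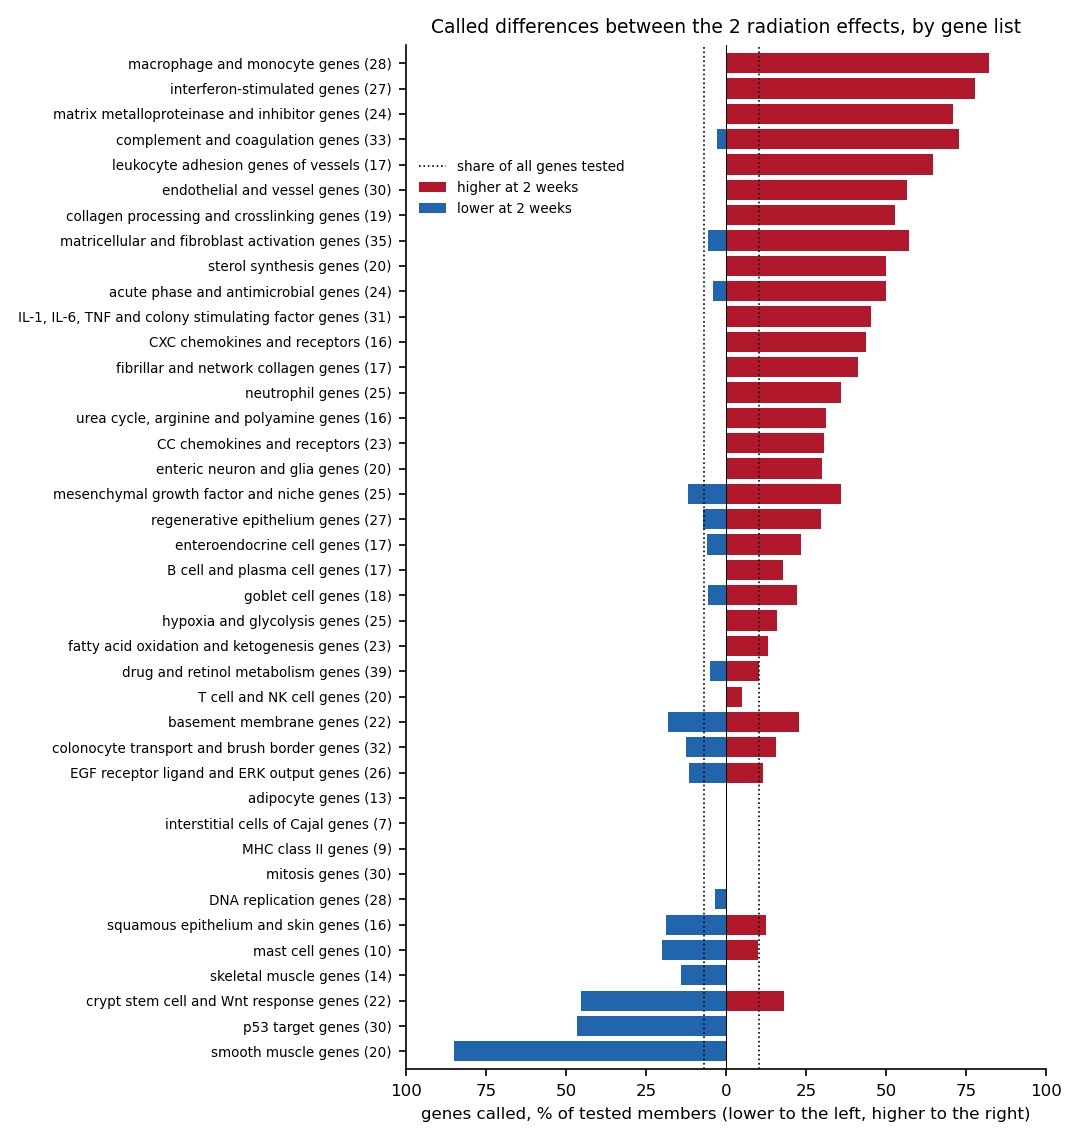
Share of the tested genes of each of 40 lists whose radiation effect was called higher (red, to the right) or lower (blue, to the left) at 2 weeks, with the number tested in parentheses. Dotted lines mark the shares of all genes, 10.2% higher and 6.96% lower; macrophage genes lie at the top with 23 of 28 higher and smooth muscle genes at the bottom with 17 of 20 lower.

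Other mice of the series give the course on either side of these times. At 8 weeks 3249 of 15107 genes tested (21.5%) were higher in irradiated mice and 2490 (16.5%) lower. At 4 h 833 of 14414 (5.78%) were higher and 824 (5.72%) lower. These comparisons share no mice with the 12 libraries used above. Of the genes with a higher effect at 2 weeks only, 915 of the 1145 tested at 8 weeks (79.9%) were higher there, while 51 of the 1023 tested at 4 h (4.99%) had been higher at that time. Of those with a lower effect at 2 weeks only, 289 of 521 (55.5%) were lower at 8 weeks.

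The classes of the earlier time looked otherwise. Of the 30 genes raised at both times with a smaller effect at 2 weeks, 21 (70%) were already higher at 4 h and 25 (83.3%) were higher at 8 weeks. Phlda3, one of them, had log2 fold changes of 4.84 at 4 h, 5.30 at 3 days, 2.04 at 2 weeks and 3.05 at 8 weeks. Among genes raised at 3 days whose effect had ended at 2 weeks, 81 of 290 (27.9%) were higher at 4 h, and at 8 weeks 37 of 288 (12.8%) were higher and 38 (13.2%) lower, below the shares of all genes. Gdf15 had log2 fold changes of 3.39 at 4 h, 3.33 at 3 days, 0.12 at 2 weeks and -1.02 at 8 weeks. Cma1, at 6.08 at 3 days, was at 0.76 at 4 h and 0.78 at 8 weeks, neither of which passed (adjusted p = 0.122 and 0.0767). Of the 65 genes that grew upward, 61 of 64 tested (95.3%) were higher at 8 weeks, and Col1a1 had log2 fold changes of -0.50 at 4 h, 1.58 at 3 days, 3.55 at 2 weeks and 3.62 at 8 weeks. Genes that reversed downward were lower at 8 weeks in 36 of 96 (37.5%), and those that reversed upward were higher in 17 of 49 (34.7%).

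**Figure D5:**
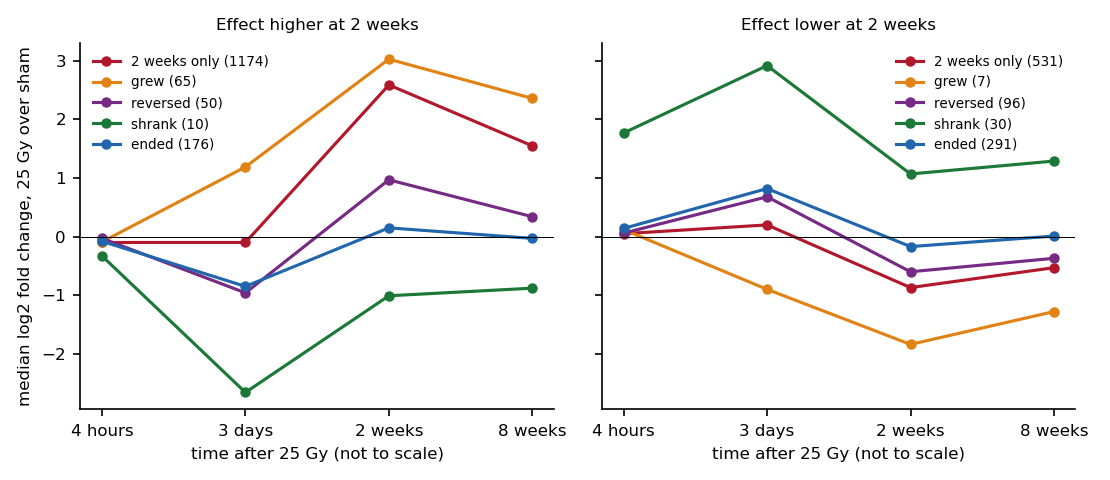
Median log2 fold change of 25 Gy over sham at 4 h, 3 days, 2 weeks and 8 weeks for the called genes of each class, with a higher effect at 2 weeks on the left and a lower one on the right; the values at 3 days and 2 weeks chose the classes, and those at 4 h and 8 weeks come from other mice. Genes with a higher effect at 2 weeks only have medians of -0.10, -0.10, 2.59 and 1.55, and genes raised at both times with a smaller effect at 2 weeks have medians of 1.77, 2.92, 1.07 and 1.29.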

How the data were processed

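RNA from the rectum of 12 mice was compared, 3 in each of 4 groups given by the labels, and 12 mice at 4 h and 8 weeks served the course. The authors deposited whole read counts per gene, not normalized, and FPKM values, for 19690 genes. Per the labels mRNA was isolated on poly(A) beads, and the submitters' processing notes name fastp 0.18.0, HISAT2, mm9, StringTie 1.3.1 and RSEM. The sources used here do not give the counting program, its annotation or its use of strand, so reads of near-identical or overlapping genes may be shared. The labels number the mice without litter or day, and p-values weigh each difference against the spread between mice of the same group.

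The quasi-likelihood test of edgeR 4.0.16 (R 4.3.3) was run on the counts with TMM factors and filterByExpr in a model of 4 groups, with Benjamini-Hochberg adjustment over the 15271 genes kept. Differences are log2 fold changes at 2 weeks less those at 3 days, with SE, and a call is an adjusted p under 0.05. CPM carry TMM factors and do not compare different genes. Library totals, which set the counting precision, are given with the results. The 40 lists are described by counts of called members, with no set test. Of the listed genes 37 were not used here, and others had counts too low to be tested. Lists that lost many members were squamous (16 of 29 tested), skeletal muscle (14 of 25), mast cell (10 of 19) and T and NK cell genes (20 of 29). The steps were tested on simulated data.

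Members, lists and classes were chosen with earlier results of these data known. Genes were named by rank: per class and direction the 10 smallest p, the 10 strongest changes per direction past the stricter thresholds and a mean of 1 CPM, per list the 4 smallest p in its main direction and 2 in the other, the 3 most abundant genes of lists of other cell types, cell type markers, the genes the study names, and Trp53. The text names a part of these, and a few are not reported here. Lgr5, Cxcl2 and Cxcl5 were picked after their values were seen.

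Alternatives were other scalings (size factors of DESeq2, total counts), other filters (none, or 1 CPM in 3 libraries), DESeq2 1.42.0, limma-voom with quality weights (limma 3.58.1), limma-trend on log2 FPKM with pseudocounts of 1 and 0.1 and with or without a mean FPKM of 1, all 27 libraries, pooled controls, a replicate block, and omission of each library. Promoters are from RefSeq (GRCm38.p6). Figures were made in Python 3.11.15 with matplotlib 3.10.9.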

Additional observations from a re-analysis of the deposited data

Results flagged for a closer look

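The difference between the radiation effects was itself tested, and 1553 genes had a higher and 1063 a lower effect at 2 weeks than at 3 days at an adjusted p under 0.05 in edgeR's quasi-likelihood test. In 146 genes the effect was called at both times with opposite signs. Among the genes named above these were Cd177, Ceacam10, Spink1, Aqp1, Smoc2 and Nsdhl, above controls at 2 weeks and below them at 3 days, and Ccnd2, Lor, Csta1, Rnf43, Lama3 and Smtn, below controls at 2 weeks and above them at 3 days. The controls of the 2 times also differed in 21 of the 50 genes above controls at 2 weeks and in 47 of the 96 below them.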

How the results depend on the processing

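Of 109 called genes named in the report, 76 were called under every one of the 24 alternatives that tested them and 33 lost the call under at least 1. Lama1 was tested under 22 of the 24. Only Nsdhl (-0.10) and Idi1 (-0.38) changed sign, both with the controls of the 2 times pooled. The higher and lower counts, 1553 and 1063, came to 2507 and 1712 with pooled controls and to 2376 and 1663 with all 27 libraries in 1 fit, and the count at the stricter thresholds, 637, came to 1534 and 1562 under these and to 1710 with DESeq2 and 1192 with limma-voom. Pooling takes the control difference as 0, so genes in which controls differ can change their call by construction; for the other settings the cause was not tested. The replicate number used as a block gave 1296 higher, 895 lower and 491 calls at the stricter thresholds. Same-numbered irradiated and control mice deviated together at 3 days (correlations 0.308, 0.317 and 0.434) but not at 2 weeks (0.015, -0.097 and 0.056), so the numbers were not taken as pairs. DESeq2 put 145 and limma-voom 205 genes in the class of growing effects (72 in edgeR), and limma-voom put 287 in the reversed (146) and 751 in the ended class (467). With 1 library left out in turn, the higher count lay between 798 and 2376, the lower between 526 and 1684, the stricter between 174 and 1556, genes with an effect at 2 weeks only between 905 and 2783, growing between 24 and 272, reversed between 49 and 222, ended between 176 and 578 and shrinking between 17 and 49. Depth limits genes near 0 in 3 of the groups, and Cxcl2, one of them, had a difference with an SE of 4.12.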
